A study of Rattus norvegicus with 19 samples.

Results

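The 76 transcripts described here were high in mast cells sorted from neonatal rat skin, about as high in mast cells from the hippocampus, and at least 20-fold lower in mast cells from bone marrow. Values are CPM (counts per 1000000), the estimated count of a transcript relative to the total of its library. A member had a mean of at least 20 CPM in skin, a skin mean at least 20 times the marrow mean, and a hippocampus mean between 0.5 and 2 times the skin mean, all at postnatal day 2 (PN2). Of 29107 transcripts, 6604 passed the first condition and 170 the first and second. Of these 170, 82 (48.2%) lay below the hippocampus window, 12 (7.06%) lay above it, and 76 (44.7%) were members.

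All rats were wild type, and each library held mast cells pooled from 6 animals that had been perfused with saline. Cells were sorted as live singlets with high CD45, without CD11b and with surface FcεRI. PN2 was sampled with 4 pools of bone marrow, 5 of skin, 4 of hippocampus and 2 of hypothalamus. PN7 was sampled with 3 pools of hippocampus and 1 of hypothalamus, and this single library has no replicates. Tests measure the spread between pools, since animals within a pool cannot be told apart.

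Mast cells are tissue-resident immune cells that carry FcεRI, the high-affinity receptor for IgE. They store proteases, heparin and histamine in granules and release them on activation. Their progenitors arise in haematopoietic tissue, enter peripheral tissues and complete their maturation there, so that connective tissues such as the skin hold granule-rich cells. In the rodent brain, mast cells are found in the meninges, along vessels and close to the hippocampus and thalamus, and their numbers change in early life.

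The members carry Ensembl transcript identifiers that the files do not pair with gene names, and the table of rat genes used here held an Ensembl identifier for 0 of its 47357 genes. No member could therefore be named, given a function or matched to a sequence. Mast cell markers and markers of other cell types could not be read either, so the labelled cell type was not checked. Reads shared by similar transcripts were divided by the authors' counting, and 4 members form 2 pairs with identical values in every library, which leaves 74 distinct profiles.

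Total estimated counts per library were 16196856 to 22563833 for marrow, 11704985 to 26394623 for skin, and 19935250 to 22967152 for hippocampus at PN2. They were lower for hippocampus at PN7, at 10329777 to 12870442. For hypothalamus they were 5495252 and 5607810 at PN2 and 9792422 at PN7. Depth thus moved with age in hippocampus and with region at PN2, and its part in the results was not tested beyond the thinned counts given below. In bulk RNA, fewer cells that carry a transcript and less of it per cell cannot be told apart.

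The skin, marrow and hippocampus values of PN2 chose the members, so they are given as a description without a test. In skin, 31 members had a mean below 100 CPM, 34 lay between this and 10 times this level, and 11 lay higher. The median member stood at 159 CPM, and the range was 20.1 to 40813 CPM. CPM values are not divided by transcript length, so an order between transcripts is an order of read shares. The hippocampus mean was above the skin mean for 31 members and below it for 45, with a median ratio of 0.885. The hippocampus libraries all lay above all skin libraries for 5 members (9.51% of transcripts of at least 5 CPM in a library) and all below for 14 (10%).

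The word absent, used in the working name of the set, does not describe its marrow values. Only 2 members had a count of 0 in all 4 marrow libraries, while 50 had counts in each of the 4. The marrow mean reached at least 1 CPM for 57 members, at least 10 CPM for 17, and 978 CPM at most. Relative to skin, the marrow mean was 2.37% for the median member and 4.99% at most. Among the 74 members with marrow counts, the fold between skin and marrow had a median of 41.1 and reached 17570. With the 2 members at 0 in marrow counted as above each limit, 30 of all 76 members reached at least 50 and 14 at least 100.

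The members at 0 in marrow were named after their values were seen. A count of 0 in the 4 libraries allows up to 0.0372 CPM, taking 3 counts over the group. Against that floor, ENSRNOT00000075775.2 was at least 3674-fold higher in skin and ENSRNOT00000065501.2 at least 736-fold higher. These floors, and the interval below, cover counting error only, because the libraries were amplified without molecular identifiers.

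Near the limits of the rule, members and non-members had almost the same values. The lowest skin mean of a member was 20.1 CPM, against 19.6 CPM for the nearest transcript outside. The lowest member ratio of hippocampus to skin was 0.509 and the nearest outside 0.498, and at the upper limit these were 1.97 and 2.01.

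**Figure D1:**
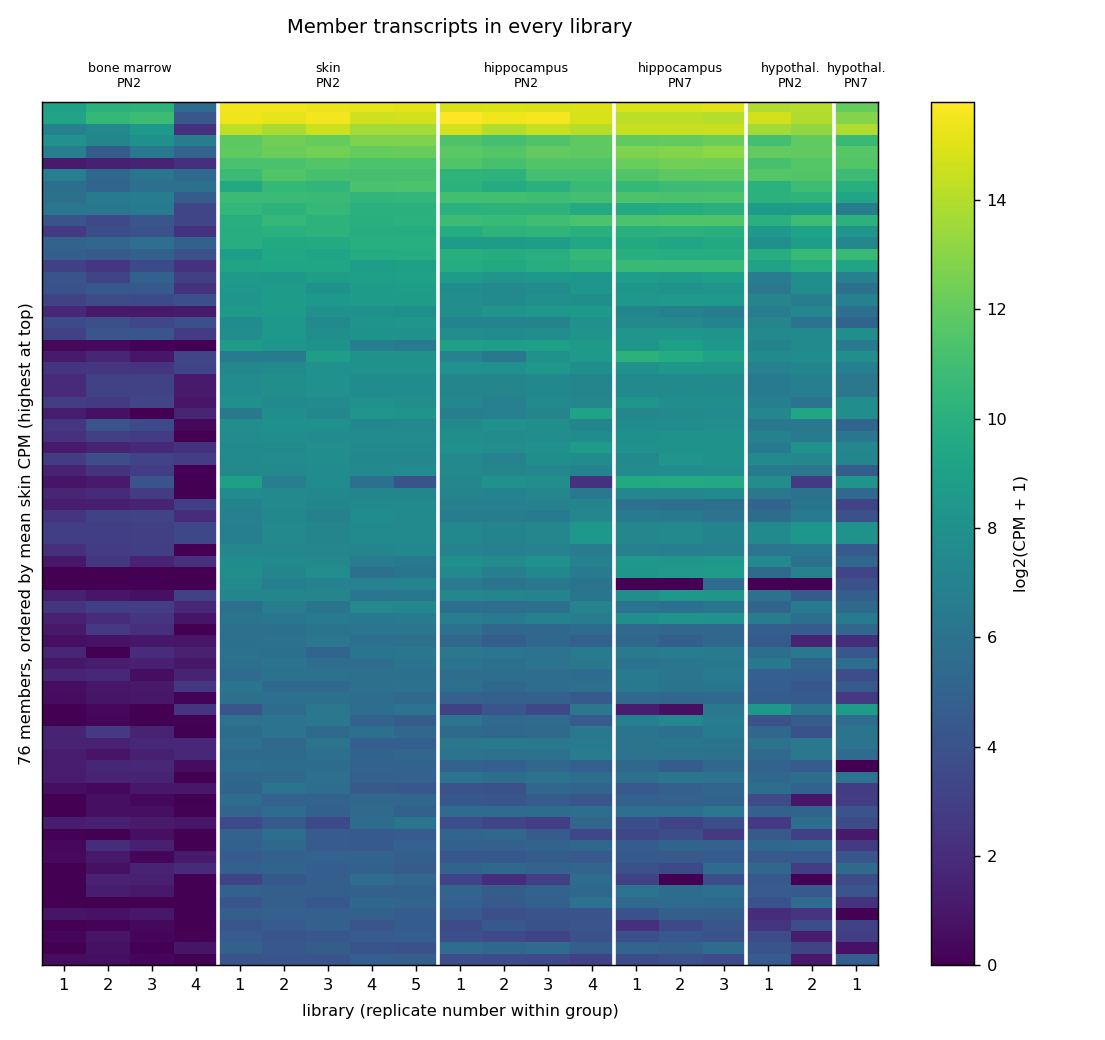
Each row is 1 of the 76 members, ordered by mean skin CPM, each column is 1 of the 19 libraries, and colour gives log2(CPM + 1). The 4 marrow columns are dark over nearly all rows, replicate 4 of marrow is darker than the others at the top, and hypothalamus columns are darker than hippocampus columns for many rows; dark cells outside marrow mark members near 0 in single libraries.

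Together, the members made up a large share of the reads outside marrow. They held 12.5% ± 1.59 (SD, n = 5) of the estimated counts in skin, 12.4% ± 1.27 (SD, n = 4) in hippocampus at PN2 and 11.6% ± 0.388 (SD, n = 3) in hippocampus at PN7. In hypothalamus at PN2 the share was 7.37% ± 0.523 (SD, n = 2). The single hypothalamus library of PN7 held 4.72%, with an exact 95% binomial interval of 4.71% to 4.74%. In marrow the share was 0.263% ± 0.167 (SD, n = 4).

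Summed CPM in marrow was 2125, 3449, 4398 and 548 for replicates 1 to 4, so replicate 4 stood below the others. Skin libraries ran from 108221 to 145045 and hippocampus libraries of PN2 from 110724 to 138975. The hippocampus libraries of PN7 ran from 112232 to 119972, within the range of both. The hypothalamus sums, 77359 and 69956 at PN2 and 47238 at PN7, lay below every skin and hippocampus library and above every marrow library. As a percentage of the skin mean, the group means came to 99.0% and 92.9% in hippocampus at PN2 and PN7, 59.0% and 37.8% in hypothalamus at PN2 and PN7, and 2.11% in marrow.

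The sums were dominated by 3 members, ENSRNOT00000090206.1, ENSRNOT00000024767.2 and ENSRNOT00000025220.6, the last of which was singled out after its values were seen. These held 74.6% ± 4.55 (SD, n = 5) of the summed members in skin and 63.7% ± 0.875 (SD, n = 3) in hippocampus at PN7. Relative to skin, the 3 together stood at 78.9% in hippocampus at PN7, and at 51.8% and 29.5% in hypothalamus at PN2 and PN7. The other 73 members stood at 134.7%, 80.6% and 62.7% of skin in the same groups. Leaving out the 3 thus turned the level of hippocampus at PN7 from below skin to above it.

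**Figure D2:**
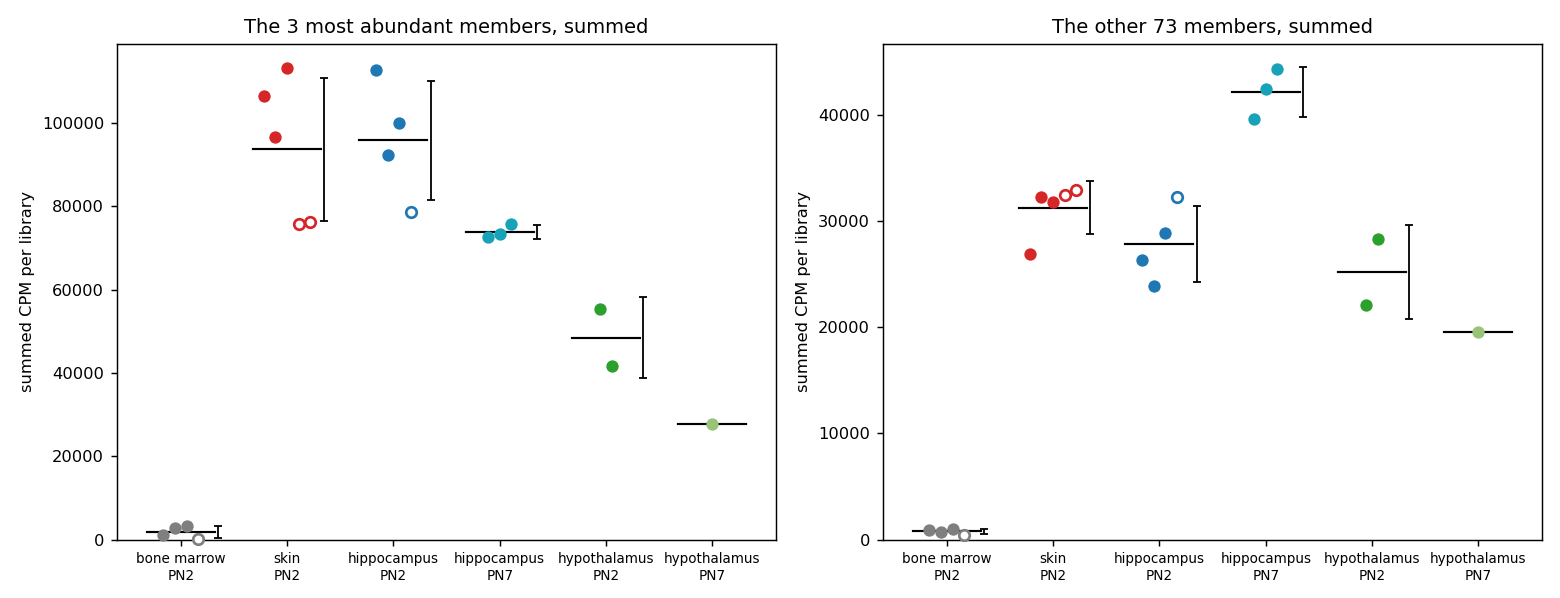
Summed CPM of the 3 members with the highest skin means (left) and of the other 73 (right) in every library, by group; points are libraries, open points are those numbered 4 or 5, lines are group means and bars are SD, with none for the single hypothalamus PN7 library. For the other 73 members, the hippocampus PN7 libraries sit between 39598 and 44258, above every other library, and both hypothalamus ages lie below hippocampus PN7.

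The highest member in skin was ENSRNOT00000090206.1. It held 521, 1091, 1184 and 44.4 CPM in marrow replicates 1 to 4, and 36824 to 44340 CPM in skin. Hippocampus libraries held 28906 to 31844 CPM at PN2 and 30786 to 34565 CPM at PN7. In hypothalamus it held 15496 and 16715 CPM at PN2 and 4321 CPM at PN7. Skin lay above both hippocampus ages without overlap, and hypothalamus below both, while the hippocampus ages overlapped.

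The second, ENSRNOT00000024767.2, held 603, 1457, 1834 and 18.5 CPM in marrow. In skin it held 42375, 37758, 46708, 26172 and 26870 CPM in replicates 1 to 5, and in hippocampus at PN2 57071, 45374, 49062 and 28847 CPM in replicates 1 to 4. Replicates 4 and 5 of skin and replicate 4 of hippocampus were the low libraries of their groups. Hippocampus at PN7 lay lower than every library of both, at 19141, 19415 and 16918 CPM. Hypothalamus held 27335 and 15367 CPM at PN2, on both sides of the hippocampus PN7 values, and 7584 CPM at PN7.

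Against marrow, the groups that the rule did not use stayed high for nearly all members. Every hypothalamus library of PN2 lay above every marrow library for 73 of 76 members, where 15.3% of all transcripts of at least 5 CPM in a library did so. In hippocampus at PN7 this held for 73 members, with 23.4% of all transcripts. The hypothalamus library of PN7 lay above every marrow library for 73 members and below every marrow library for 1, against 37.8% and 35.5% of all transcripts. Low marrow means were part of the rule, so these counts are a description only. The fold over marrow had a median of 44.4 in hippocampus at PN7, and of 27.1 and 19.1 in hypothalamus at PN2 and PN7, over the 74 members with marrow counts. It was at least 20 for 63, 48 and 35 of these members.

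Relative to skin, the median member stood at 101.9% in hippocampus at PN7, and at 59.2% and 36.0% in hypothalamus at PN2 and PN7. The quartiles were at 76% and 156.0%, at 40.3% and 93.9%, and at 17.1% and 93.2%. In hypothalamus at PN2, 17 members lay above the skin mean and 32 below 50% of it. In hippocampus at PN7, 41 lay above the skin mean and 8 below 50% of it. The highest group mean belonged to hippocampus at PN7 for 32 members, skin for 26, hippocampus at PN2 for 8, hypothalamus at PN7 for 7 and hypothalamus at PN2 for 3. Marrow was the lowest group for 74 members, and the rule itself had placed it below skin and hippocampus at PN2. These ranks are a description only, and the hypothalamus mean of PN7 is the value of 1 library.

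Members varied widely between marrow libraries, in which their counts were low. The median coefficient of variation of members between marrow libraries was 69.2%, against 16.2% for other transcripts of at least 20 CPM there, which are higher in counts. In skin these medians were 18.7% and 13.5%, in hippocampus 20.9% and 14.7% at PN2 and 11.1% and 10.5% at PN7. Marrow replicate 4 was the lowest for 37 of 76 members (48.7%) and the highest for 20 (26.3%), whereas it was the lowest for 31.3% and the highest for 46.9% of other transcripts of at least 5 CPM in a library. Over the 54 members with at least 1 CPM on average in replicates 1 to 3, replicate 4 stood at a median of 0.461 times their mean.

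Age in hippocampus, region at PN2, and hypothalamus at PN2 against hippocampus at PN7 were tested with edgeR's quasi-likelihood test over all 20521 transcripts that passed the count filter, all 76 members among them, with calls at an adjusted p below 0.05. All 19 libraries shared 1 estimate of the spread per transcript, marrow included. Since members differed so much between marrow libraries, the fit was also run without the 4 marrow libraries, an alternative chosen after seeing the data. The median standard error of the members' log2 fold changes was then 0.25 in place of 0.42 for age, and 0.30 in place of 0.51 for region at PN2. Fold changes moved little, by a median of 0.05 in both comparisons. Counts of calls are given below for both fits, and for some single members only the fit with all libraries is given. The 3 comparisons share libraries: each group enters 2 of them. The first and second also contain the hippocampus libraries of PN2, whose mean helped to choose the members and is part of each of these fold changes. Their signs and counts over the members are therefore partly set by the choice and are given as a description. The p-values of single members in these 2 comparisons share this limit. Members named for the size of their change were also picked from the calls themselves.

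From PN2 to PN7 in hippocampus, members moved in both directions. With all libraries in the fit, 3 members rose and 2 fell, which is 5 of 76 against 8.94% of all tested transcripts (3.43% higher and 5.51% lower). Without marrow, 8 rose and 3 fell, against 10.6% of all tested transcripts (3.61% higher and 6.97% lower), and all 5 members were called again. Leaving out any 1 hippocampus library gave 1 to 3 calls with all other libraries in the fit, 1.32% to 3.95% of members against 5.24% to 7.57% of all tested transcripts. The fitted change was positive for 48 members and negative for 28, with a median of 0.22 on the log2 scale against 0.00 for all tested transcripts. All PN7 libraries lay above all PN2 libraries for 28 members (19.1% of transcripts of at least 5 CPM) and below them for 6 (16.2%). Since the PN2 mean chose the members, these counts and signs are not independent of the rule.

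The largest called rise with age was that of ENSRNOT00000026654.6. It held 106, 86.1, 121 and 100.3 CPM in the hippocampus libraries of PN2 and 230, 292 and 264 CPM in those of PN7. The ages did not overlap, and skin, at 66.9 to 88.6 CPM, lay below PN7 as well. This was a log2 fold change of 1.29 ± 0.33 (SE), with an adjusted p of 0.0208 in edgeR's quasi-likelihood test and of 0.000432 without marrow (1.49e-05 to 0.0856 over 19 alternatives). In these alternatives the call was lost only without replicate 1, 2 or 4 of PN2 and without replicate 2 or 3 of PN7.

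A second rise was that of ENSRNOT00000010171.4, which stood 1302-fold higher in skin than in marrow. It held 1.17 to 3.32 CPM in marrow, 2412 to 3036 CPM in skin, and 2869, 2383, 2937 and 2942 CPM in hippocampus at PN2. At PN7 hippocampus held 4605, 5515 and 5002 CPM, above every library of any other group. Hypothalamus, with 2309 and 3222 CPM at PN2 and 3074 CPM at PN7, lay around the skin values. Its log2 fold change with age was 0.81 ± 0.23 (SE), with an adjusted p of 0.0333 in edgeR's quasi-likelihood test and of 0.0115 without marrow (7.07e-05 to 0.136 over 19 alternatives). Leaving out any 1 of the 7 hippocampus libraries ended the call, as did testing without the filter on low counts.

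Of the members that fell, ENSRNOT00000011466.3 went from 223, 285, 340 and 388 CPM at PN2 to 152, 123 and 105 CPM at PN7. In hypothalamus it was lower than hippocampus at PN2, with 101 and 159 CPM at PN2 and 53.7 CPM at PN7. The log2 fold change with age was -1.33 ± 0.32 (SE), with an adjusted p of 0.0155 in edgeR's quasi-likelihood test, and the call was lost without replicate 2 or 3 of PN7.

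The other fall was that of ENSRNOT00000091999.1, from 116, 118, 126 and 153 CPM at PN2 to 58.0, 55.6 and 55.0 CPM at PN7. Skin held 134 to 185 CPM, and hypothalamus 34.6 and 69.5 CPM at PN2 and 8.58 CPM at PN7. Its fall with age was a log2 fold change of -1.24 ± 0.36 (SE), with an adjusted p of 0.0441 in edgeR's quasi-likelihood test and of 0.00315 without marrow (9.41e-06 to 0.128 over 19 alternatives). Again any 1 of the 7 hippocampus libraries, left out, ended the call, and so did RLE size factors, scaling by library totals alone and the fit with the replicate number as a block.

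For ENSRNOT00000024767.2, whose PN7 libraries were the lowest of hippocampus, the call depended on marrow. Its log2 fold change with age was -1.34 ± 0.81 (SE) with an adjusted p of 0.335 in edgeR's quasi-likelihood test, and -1.39 ± 0.29 (SE) with an adjusted p of 0.00771 without marrow (0.00745 to 0.476 over 19 alternatives). Marrow replicate 4 held 18.5 CPM of this transcript, against 603 to 1834 CPM in the other marrow libraries.

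**Figure D3:**
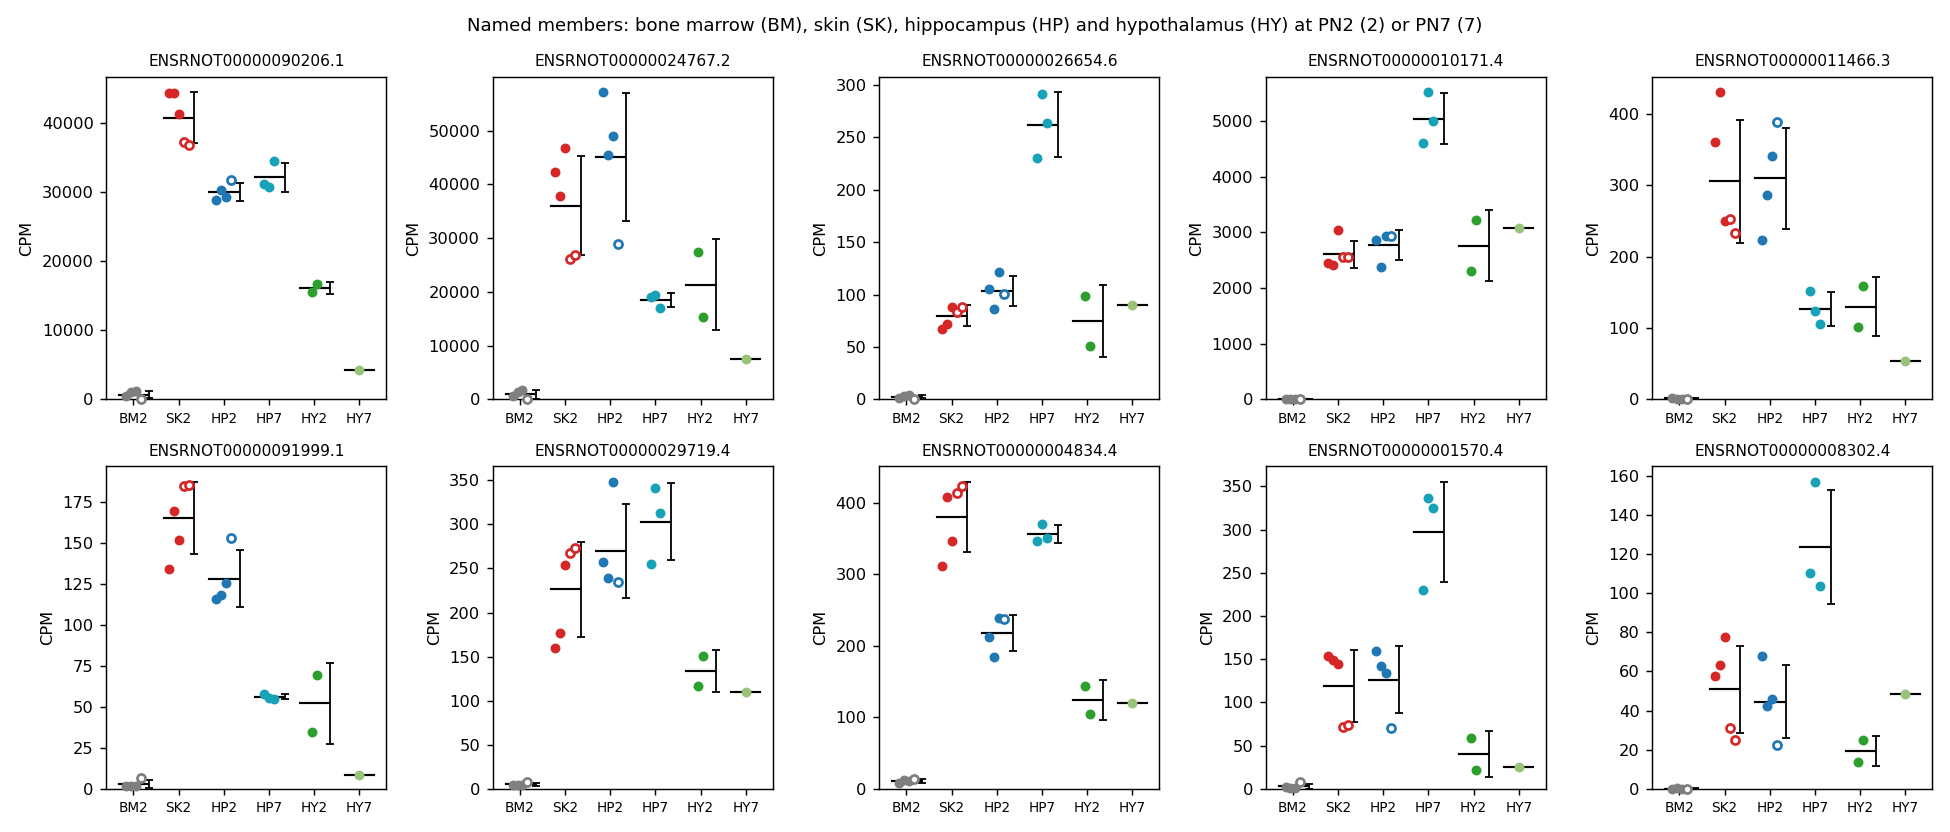
CPM of 10 members in every library: the 2 with the highest skin means and those chosen by size of change in the 3 tested comparisons. Points are libraries, open points are those numbered 4 or 5, lines are group means and bars are SD; hippocampus at PN7 stands above PN2 for ENSRNOT00000026654.6 and ENSRNOT00000010171.4 and below it for ENSRNOT00000011466.3 and ENSRNOT00000091999.1.

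Between the brain regions at PN2, members were mostly lower in hypothalamus, a direction that the choice of members by their hippocampus mean partly sets. The fitted change was negative for 63 members and positive for 13, with a median log2 fold change of -0.69 against -0.14 for all tested transcripts. With all libraries in the fit, 2 of 76 members were called, both lower, against 6.21% of all tested transcripts (2.49% higher and 3.72% lower). Without marrow, 24 members were called, all lower, against 8.09% of all tested transcripts (2.50% higher and 5.60% lower). Both hypothalamus libraries lay below all 4 hippocampus libraries for 33 members (16.3% of transcripts of at least 5 CPM) and above them for 1 (10.9%). Leaving out replicate 1, 2 or 3 of hippocampus gave 1 call each, 1.32% of members against 3.88% to 4.13% of all tested transcripts. Leaving out a hypothalamus replicate leaves 1 hypothalamus library at PN2, so no conclusion is drawn from those fits. With all libraries in the fit, as without hippocampus replicate 1, 2 or 3, the share of members called was thus below that of all tested transcripts. The shares of all transcripts count both directions, while the members called were all lower.

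The 2 members called with all libraries were ENSRNOT00000029719.4 and ENSRNOT00000004834.4. The first held 257, 239, 348 and 234 CPM in hippocampus at PN2 and 116 and 150 CPM in hypothalamus, without overlap. Its log2 fold change was -1.04 ± 0.27 (SE), with an adjusted p of 0.0319 in edgeR's quasi-likelihood test. The call was lost under 7 of 18 alternatives: RLE size factors, limma voom, only the groups compared, and leaving out replicate 1, 2 or 3 of hippocampus or replicate 1 of hypothalamus (adjusted p up to 0.174).

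For ENSRNOT00000004834.4 the groups did not overlap from marrow over hypothalamus and hippocampus at PN2 to hippocampus at PN7. Marrow held 7.78 to 13.7 CPM and hypothalamus 144 and 105 CPM at PN2 and 120 CPM at PN7. Hippocampus held 211, 184, 238 and 237 CPM at PN2 and 346, 369.5 and 351 CPM at PN7, within the skin range of 311 to 423 CPM. The log2 fold change of hypothalamus against hippocampus at PN2 was -0.88 ± 0.16 (SE), with an adjusted p of 0.00354 in edgeR's quasi-likelihood test. Its rise with age in hippocampus was 0.66 ± 0.13 (SE), with an adjusted p of 0.00443 in the same fit. It was called in all 3 comparisons, both with all libraries in the fit and without marrow. These calls are not independent of each other, because the comparisons share libraries.

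The highest member, ENSRNOT00000090206.1, had no overlap between the regions at PN2 but a log2 fold change of -0.94 ± 0.72 (SE) and an adjusted p of 0.459 in edgeR's quasi-likelihood test. Without marrow the change was -0.99 ± 0.17 (SE), with an adjusted p of 0.00362 (0.00362 to 0.641 over 18 alternatives). Its marrow values span 44.4 to 1184 CPM.

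**Figure D4:**
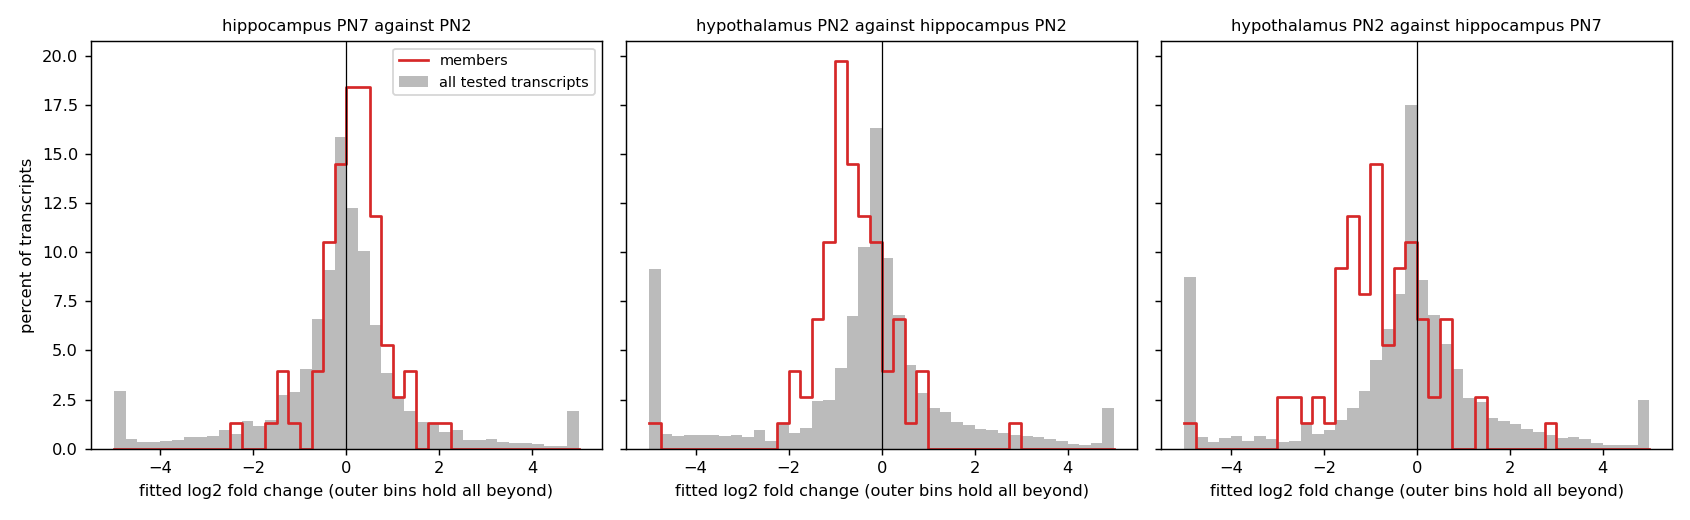
Distribution of fitted log2 fold changes in the 3 tested comparisons, as percent of the 76 members (red line) and of the 20521 tested transcripts (grey bars); the outer bins hold all values beyond. Members centre slightly above 0 for age in hippocampus (median 0.22) and below 0 for hypothalamus against hippocampus at PN2 (-0.69) and PN7 (-0.83).

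Hypothalamus at PN2 against hippocampus at PN7 uses no library that chose the members, but region and age cannot be told apart in it. The rule also asked for a hippocampus mean of at least 0.5 times skin at PN2 and set no condition on hypothalamus. Signs and counts over the members are therefore not independent of the choice here either, and are given as a description. The fitted change was negative for 61 members and positive for 15, with a median of -0.83 against -0.01 for all tested transcripts. With all libraries in the fit, 10 of 76 members were called, all lower, against 10.4% of all tested transcripts (4.65% higher and 5.70% lower). Without marrow, 34 members were called, all lower, against 11.4% (4.80% higher and 6.63% lower), and 8 of the 10 were called again. Leaving out replicate 1, 2 or 3 of hippocampus at PN7 gave 8, 4 and 7 calls, all lower except 1 without replicate 3. These were 10.5%, 5.26% and 9.21% of members against 8.05%, 6.19% and 8.25% of all tested transcripts. When only the libraries of these 2 groups were fitted, 0 of the 75 members that passed the filter and 0 of all 14732 transcripts were called by edgeR, while 37 members had an unadjusted p below 0.05; over all libraries, DESeq2 called 18 members (23.7%, against 16.8% of all transcripts) and limma voom 4 (5.26%, against 1.52%). Both hypothalamus libraries lay below all hippocampus PN7 libraries for 47 members (22.5% of transcripts of at least 5 CPM) and above them for 3 (16.8%).

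The largest called difference was that of ENSRNOT00000001570.4, with 230, 336 and 324 CPM in hippocampus at PN7 and 59.1 and 21.4 CPM in hypothalamus at PN2. Hippocampus at PN2 lay between, at 159, 143, 134 and 70.3 CPM, and the hypothalamus library of PN7 held 25.4 CPM. The difference came to a log2 fold change of -2.96 ± 0.76 (SE), with an adjusted p of 0.0213 in edgeR's quasi-likelihood test, and the call was lost with limma voom, with only the groups compared and without replicate 2 of either group (adjusted p up to 0.130).

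The second was ENSRNOT00000008302.4, a member with 6 counts in all 4 marrow libraries together. It held 110, 157 and 103 CPM in hippocampus at PN7, 67.9, 42.0, 45.8 and 22.3 CPM in hippocampus at PN2, and 13.8 and 24.8 CPM in hypothalamus at PN2. The log2 fold change between hypothalamus at PN2 and hippocampus at PN7 was -2.63 ± 0.62 (SE), with an adjusted p of 0.0128 in edgeR's quasi-likelihood test, and the call was lost with limma voom, with only the groups compared and without hypothalamus replicate 1 (adjusted p up to 0.275). The hypothalamus library of PN7 held 48.6 CPM, above both hypothalamus libraries of PN2.

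**Figure D5:**
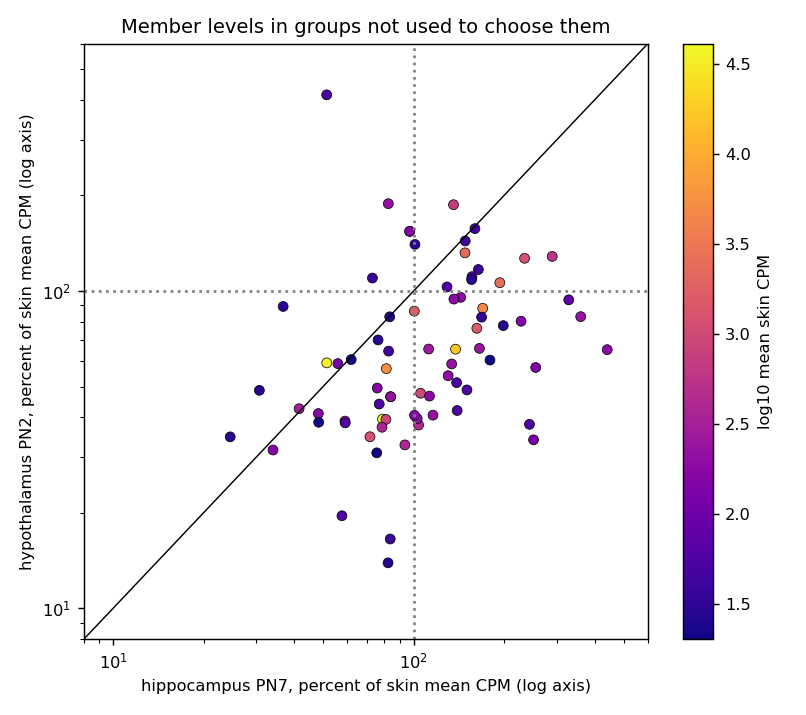
Each point is a member, with its mean level in hippocampus at PN7 (horizontal) and in hypothalamus at PN2 (vertical), both as percent of its mean skin CPM on log axes; colour gives log10 mean skin CPM, the solid line marks equal levels and dotted lines mark the skin mean (100%). Of 75 members plotted, 62 lie below the line and 13 above it; the member at 0 in hypothalamus, ENSRNOT00000075775.2, cannot be drawn on a log axis.

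The hypothalamus library of PN7 gives values without a test. It lay below both hypothalamus libraries of PN2 for 40 members (19.2% of transcripts of at least 5 CPM), above both for 13 (41.4%) and between them for 23. Against hippocampus at PN7 it lay below every library for 61 members (29.0%) and above every library for 6 (46.7%). At both hypothalamus ages, 54 members were below the skin mean. Of the 3 highest members, ENSRNOT00000025220.6 kept 93.6% of its skin mean in this library, with 15758 CPM against 12470 and 9594 CPM in hypothalamus at PN2, whereas ENSRNOT00000090206.1 stood at 10.6% of skin.

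Other members did not follow the rest, and they were singled out after their values were seen. ENSRNOT00000057386.2 was the 1 member above 200% of its skin mean in hypothalamus at PN2, with 350 and 72.6 CPM there and 408 CPM in hypothalamus at PN7. Skin held 16.7 to 75.1 CPM of it, and hippocampus held 7.85, 17.7, 9.58 and 77.2 CPM at PN2 and 1.40, 0.562 and 76.5 CPM at PN7. Hippocampus replicate 4 of PN2 and replicate 3 of PN7 were its high libraries, and the hypothalamus libraries of PN2 differed from each other.

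ENSRNOT00000075775.2 held 112 to 176 CPM in skin and 66.2 to 86.1 CPM in hippocampus at PN2. It had 0 counts in both hypothalamus libraries of PN2, where 3 counts over the group would be 0.270 CPM, so hippocampus at PN2 was at least 278-fold higher. In hippocampus at PN7 it was at or near 0 in 2 libraries and at 44.6 CPM in the third, and the hypothalamus library of PN7 held 14.1 CPM. With all libraries in the fit, the regions at PN2 did not pass the threshold for it in edgeR's quasi-likelihood test, with an adjusted p of 0.0569. The alternatives fell on both sides of the threshold.

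ENSRNOT00000079947.1 held 783, 824 and 738 CPM in hippocampus at PN7, its highest group. At PN2 hippocampus held 160, 249 and 225 CPM in replicates 1 to 3 but 3.81 CPM in replicate 4. Skin ran from 16.2 to 507 CPM, while hypothalamus at PN2 held 226 and 5.47 CPM. Hippocampus replicate 4 of PN2 thus stood far below the others of its group, and the hypothalamus libraries of PN2 differed from each other. In skin, replicates 4 and 5 both lay below replicates 1 to 3.

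Some of this spread followed library numbers. Hippocampus replicate 4 of PN2 lay outside the range of replicates 1 to 3 for 57 members, above for 35 and below for 22, which is 46.1% and 28.9% of members against 40.3% and 27.5% of other transcripts of at least 5 CPM. Skin replicates 4 and 5 both lay below replicates 1 to 3 for 26 members, 34.2% against 15.6% of other transcripts, and both above for 20, 26.3% against 29.1%. In both tissues at once, 13 members were below (17.1%, against 8.51% of other transcripts), 15 were above (19.7%, against 18.2%), and 8 went opposite ways (10.5%, against 6.45%). The labels do not call the number a batch, and its part in the results was not tested beyond leaving these libraries out. Without the libraries numbered 4 and 5 (hippocampus, marrow and skin), 10 members were called for age (6 higher and 4 lower), 13.2% against 12.2% of all tested transcripts. For region at PN2 there were 19 calls, 25% against 10.9%, and for hypothalamus at PN2 against hippocampus at PN7 there were 25, 32.9% against 16.1%, all lower in both. Marrow replicate 4, which stood apart for these members, is among the libraries left out.

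After thinning all libraries to the total of the smallest, 6 members were called for age (4 higher and 2 lower), 7.89% against 10.04% of all tested transcripts. For region at PN2 there were 6 calls, 7.89% against 6.74%, and for hypothalamus at PN2 against hippocampus at PN7 there were 12, 15.8% against 11.97%, all lower in both.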

How the data were processed

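Smart-Seq libraries of sorted mast cells were counted per transcript. The authors deposited estimated counts, not normalized between libraries; kallisto and Rnor_6.0 are named per the submitters' processing notes, with no version. Of 29107 transcripts, 4511 were at 0 throughout, and 72.4% of values were whole within 1e-06.

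Group means of CPM chose the members. Estimated counts were rounded and tested with edgeR 4.0.16 (R 4.3.3): filterByExpr over groups, TMM, and a robust quasi-likelihood fit of the 6 group means with Benjamini-Hochberg adjustment over all 20521 transcripts tested; the standard error is the fold change over the square root of F. The test was checked on simulated counts for age and for region at PN2, in which all groups shared the spread of each transcript. Those counts did not copy the differing spread of members between marrow and the other groups, so the check does not cover it. Members and gene lists were chosen with earlier results of these data known. The 27 lists with 253 genes could not be matched and were not used.

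Named are the 2 members with the highest skin means and, per comparison, at most 2 per direction with the largest called change among those that reached 10 CPM in one group and whose groups did not overlap; others are said to be chosen after their values were seen. Alternatives were RLE size factors, DESeq2 1.42.0, limma 3.58.1 voom, other filters, fewer groups, a replicate block, other rule limits and each replicate left out. Added after seeing the data were fits without marrow or without libraries 4 and 5, thinning, merged identical transcripts, library totals alone, and sums without the 3 highest members. Tables and figures used SciPy 1.17.1 and matplotlib 3.10.9.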

Additional observations from a re-analysis of the deposited data

Results flagged for a closer look

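For 13 sets of values (sums or single members), the highest or lowest library of each group of 4 or 5 was checked for its gap to the others. Of these 39 checks (Dixon's 95% limit), 7 stood apart. Chance gives about 1 in 20 for separate checks, whereas these reuse the same libraries and overlapping sums. The sum of the 73 members below the 3 highest was 26836 CPM in skin replicate 1, while the remaining skin libraries held 31817 to 32857 CPM. For ENSRNOT00000010171.4, skin replicate 3 was high at 3036 CPM, against 2412 to 2561 CPM, and hippocampus replicate 2 of PN2 was low at 2383 CPM, against 2869 to 2942 CPM. The others were marrow values. ENSRNOT00000011466.3 held 2.53 CPM in marrow replicate 1, against 1.14 to 1.24 CPM. Marrow replicate 4 was high for ENSRNOT00000091999.1 (6.47 CPM, against 1.42 to 2.00), ENSRNOT00000029719.4 (7.93 CPM, against 4.33 to 4.66) and ENSRNOT00000001570.4 (7.71 CPM, against 0.667 to 1.67), while the sum of all members was lowest in the same library.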

How the results depend on the processing

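The direction of the members' calls between hypothalamus and hippocampus was mostly kept, but their number was not. Beside each count of members stands the share of all tested transcripts called, except for fits with 1 replicate left out. For age in hippocampus, 5 calls (8.94% of all transcripts) became 10 with DESeq2 (15.1%), 21 with limma voom (21.0%), 20 with only the groups compared (19.1%), 10 without libraries 4 and 5 (12.2%), and 11 without marrow (10.6%). For region at PN2, 2 calls (6.21%) became 1 with RLE size factors (5.81%), 9 with DESeq2 (11.2%), 1 with voom (1.31%), 4 with only the groups compared (1.77%), 19 without libraries 4 and 5 (10.9%), 24 without marrow (8.09%) and 6 after thinning (6.74%). For hypothalamus at PN2 against hippocampus at PN7, 10 calls (10.4%) became 18 with DESeq2 (16.8%), 4 with voom (1.52%), 0 with only the groups compared (0%), 25 without libraries 4 and 5 (16.1%) and 34 without marrow (11.4%). Leaving out 1 hippocampus replicate of the groups compared gave 1 to 3, 1 to 2 and 4 to 8 calls. In the last comparison, 1 member was called higher without hippocampus PN7 replicate 3. Among all tested transcripts, leaving out 1 hippocampus replicate gave shares of 5.24% to 7.57%, 3.88% to 6.18% and 6.19% to 8.25%. The highest counts of members, 7 and 13, came without hypothalamus replicate 1, where the share of all transcripts called exceeded that of members. That fit leaves 1 hypothalamus library at PN2, so no conclusion is drawn from it. Without marrow the members' standard errors were smaller. The cause of the changes in the number of calls was not tested.

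Whether replicate numbers pair the libraries was not settled. Same-numbered deviations from the group means correlated at 0.061, 0.026 and -0.15 for age. They correlated at 0.10 and -0.11 for region at PN2, and at -0.12 and 0.15 for the third comparison. The deviations of the 2 hypothalamus libraries are exact opposites of each other, so the values of these comparisons cannot decide on pairing. With the replicate number as a block, 6, 4 and 10 members were called, with 9.33%, 6.24% and 10.8% of all transcripts. For the 8 named changes, 0 of 146 alternatives reversed the direction and 41 ended the call. Only 2 of 18 alternatives did so for ENSRNOT00000004834.4 (voom and only the groups compared, adjusted p up to 0.0597), and 10 of 19 for ENSRNOT00000091999.1.

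A fold limit of 10 gave 138 members and one of 50 gave 30. As a percentage of skin, hippocampus at PN2 stood at 88.5% for the median member. Hippocampus at PN7 stood at 101.9% for the median member, 140.7% without the 5 highest members and 134.7% without the 3 highest. Hypothalamus at PN2 stood at 84.9% without the 5 highest and 80.6% without the 3 highest, and hypothalamus at PN7 at 32.8% with TMM scaling, 36.0% for the median member, 68.9% without the 5 highest, 37.7% with identical transcripts counted once and 62.7% without the 3 highest.

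Depth was lowest in hypothalamus, and 2 or 1 libraries per age limit every statement on that region.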
